A study of Rattus norvegicus with 9 samples.

Results

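The genes described are 8 inflammatory cytokine and adhesion genes of the rat, given by Ensembl ID: Il6 (ENSRNOG00000010278), Il1b (ENSRNOG00000004649), Ccl2 (ENSRNOG00000007159), Cxcl1 (ENSRNOG00000002802), Icam1 (ENSRNOG00000020679), Vcam1 (ENSRNOG00000014333), Ptgs2 (ENSRNOG00000002525) and Nfkbia (ENSRNOG00000007390). They were chosen by name, with earlier results of these data known. The count tables give IDs only, so that the pairing of ID and symbol comes from the definition of the list. All 8 were among the 30560 IDs in the tables, none was missing, and all 8 passed the filter on low counts that left 15879 genes to be tested. RNA was sequenced from rat heart cells labelled cardiomyocytes and NRCM, in 9 libraries of 3 groups. The normoxia group (n = 3) carries no other treatment in its labels, which do not say whether it received solvent. The H/R-DMSO group (n = 3) was held for 6 h at 0.1% oxygen without glucose and pyruvate, then returned to 21% oxygen and standard medium for 12 h with DMSO as the solvent, which models ischemia and reperfusion of the heart in a dish. The H/R-AS8351 group (n = 3) went through the same hypoxia and reoxygenation (H/R), with 0.5 µM AS8351, described by the labels as an inhibitor of the histone demethylase Kdm5b, in place of solvent alone during reoxygenation. The abbreviation NRCM usually stands for neonatal rat cardiomyocytes, and beyond this no age, genotype or strain is used here.

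Cells under stress or injury switch on a shared set of inflammatory genes, many of them through the transcription factor NF-kB, which is held in the cytoplasm by inhibitor proteins until a signal leads to their breakdown. Cytokines such as interleukin 6 and interleukin 1 beta carry the alarm to other cells, chemokines such as Ccl2 and Cxcl1 draw in monocytes and neutrophils, and adhesion molecules such as Icam1 and Vcam1 let those leukocytes attach. Cardiomyocytes can express these genes, and so can the fibroblasts, endothelial cells and macrophages that a culture from heart may hold. No marker of those cell types or of cardiomyocytes could be looked up, because the rat gene table used here pairs none of its genes with an Ensembl ID (0 matches), so the label was not checked and the part of other cells in these results was not tested. In bulk RNA, fewer cells of a type and less RNA per cell cannot be told apart.

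The list did not move as one after H/R. With solvent, the chemokines Ccl2 and Cxcl1 and the adhesion gene Vcam1 rose between 1.73-fold and 2.07-fold over normoxia. Ptgs2 and Il1b fell 2.92-fold and 2.64-fold, and Icam1 and Nfkbia fell by less. The fall of Nfkbia did not pass the test when libraries were scaled to the total count or without replicate 1 of normoxia. Il1b rested on 13 to 86 counts per library. Il6 rested on 18 to 41 counts per library and did not pass the test in any comparison. With AS8351, Ccl2, Cxcl1 and Vcam1 were lower than with solvent by 15.8% to 20.6%, and Ptgs2 and Nfkbia were higher by 31.9% and 20.0%. The decrease of Cxcl1 with AS8351 did not pass the test without replicate 2 of H/R-AS8351. Compared with normoxia, the H/R-AS8351 libraries still had more Ccl2, Cxcl1 and Vcam1 and less Ptgs2 and Icam1. That difference of Icam1 did not pass when libraries were scaled to the total count.

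**Figure D1:**
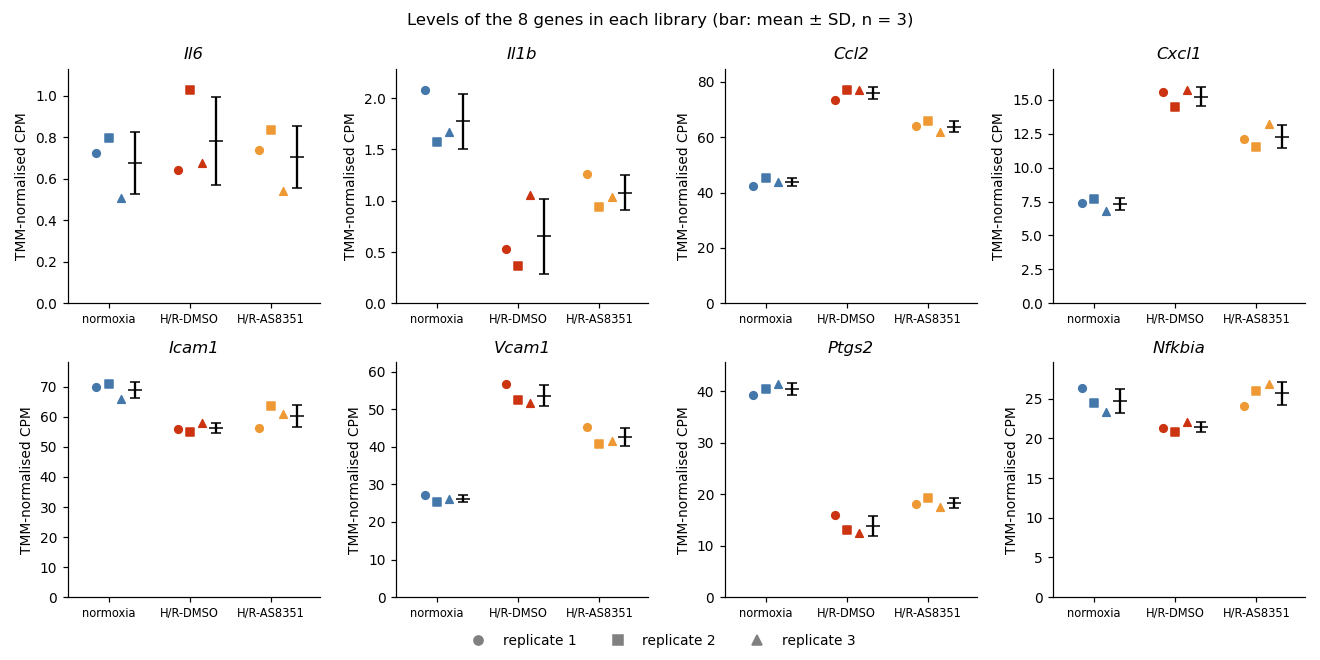
TMM-normalised CPM, counts scaled to a common library size (vertical axis from 0), of each of the 8 genes in each of the 9 libraries, by group, with the mean and SD of the 3 libraries beside the points. Ccl2, Cxcl1 and Vcam1 are lowest in normoxia and highest in H/R-DMSO, Ptgs2 shows the opposite order, and the 3 groups of Il6 overlap between 0.509 and 1.03 CPM.

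The libraries held between 34442733 and 54888975 counts. Levels are given as CPM scaled by the trimmed mean of M values (TMM), and the test was edgeR's quasi-likelihood test on the whole table, with Benjamini-Hochberg adjustment and a threshold of 0.05. Separate cultures for the 3 libraries of a group are not mentioned in the labels, so p-values measure the spread between these libraries, which may be technical. Counts were not divided by gene length, so a level is compared between groups and not between genes.

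Stretches of the promoters are shown for 6 of the genes to let their sequence be read beside their changes. They come from the RefSeq table of build GRCr8, which held 7 of the 8 genes, all but Ccl2. The stretches span positions -120 to -21 from the table's start site, 5′ to 3′ on the gene's strand. In the first 4, capitals mark matches to the kappaB consensus, the motif that NF-kB binds, searched on both strands. In the last 2, capitals mark ACGTG or GCGTG, the core of the motif bound by hypoxia-inducible factors, also searched on both strands, where overlapping matches form one run.
Cxcl1, chr14:17479342-17479441, minus strand: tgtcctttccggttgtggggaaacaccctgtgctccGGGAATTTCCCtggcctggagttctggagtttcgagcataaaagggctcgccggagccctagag
Vcam1, chr2:206742804-206742903, minus strand: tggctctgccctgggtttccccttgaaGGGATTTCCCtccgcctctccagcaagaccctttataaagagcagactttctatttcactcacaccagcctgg
Il6, chr4:5894596-5894695, minus strand: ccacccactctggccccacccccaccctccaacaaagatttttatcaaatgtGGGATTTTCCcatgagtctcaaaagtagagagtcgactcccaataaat
Nfkbia, chr6:78597093-78597192, minus strand: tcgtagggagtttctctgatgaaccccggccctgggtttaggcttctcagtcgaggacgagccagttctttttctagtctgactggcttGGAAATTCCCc
Ptgs2, chr13:64713943-64714042, plus strand: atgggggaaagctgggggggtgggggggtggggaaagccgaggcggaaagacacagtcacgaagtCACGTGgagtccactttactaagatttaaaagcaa
Icam1, chr8:27829725-27829824, plus strand: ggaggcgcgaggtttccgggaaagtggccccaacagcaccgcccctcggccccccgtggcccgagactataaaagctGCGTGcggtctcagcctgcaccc

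A kappaB match lay in the window from 250 bases before to 50 bases after the start of 4 of the 7 genes, Il6, Cxcl1, Vcam1 and Nfkbia, and in 7.51% of all 33469 windows of that length in the table. The match began at position -68 in Il6, -84 in Cxcl1, -93 in Vcam1 and -31 in Nfkbia, where it reads on the other strand. In Cxcl1 and Vcam1 the letters match on both strands at overlapping positions. Of the 4 genes with a match, Cxcl1 and Vcam1 rose after H/R. Nfkbia fell, a call lost under total-count scaling and without replicate 1 of normoxia. Il6, at 18 to 41 counts per library, did not pass the test. Whether a match bears on these changes was not tested. For Il1b, Icam1 and Ptgs2 the search says only that these letters are not in this window, and Ccl2 was not searched. ACGTG or GCGTG was present in 3 of the 7 windows, those of Icam1, Vcam1 and Ptgs2, and in 41.6% of all windows. A match is a description of the sequence and not a measured binding site.

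Ccl2 codes for the chemokine that attracts monocytes. Its level was 42.5, 45.3 and 43.7 CPM in the normoxia libraries, 73.3, 77.1 and 77.0 CPM in H/R-DMSO and 64.0, 65.8 and 61.7 CPM in H/R-AS8351. The 3 groups did not overlap, with normoxia lowest and H/R-DMSO highest. After H/R with solvent, Ccl2 rose 1.73-fold (log2 fold change 0.79, SE 0.05, adjusted p = 1.7e-17 by edgeR, n = 3 per group). With AS8351 it was lower than with solvent (log2 fold change -0.25, 95% interval -0.35 to -0.15, adjusted p = 0.000117 by edgeR). It was still 1.46-fold above normoxia (interval 1.36 to 1.56, adjusted p = 4.09e-12 by edgeR).

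Cxcl1, a chemokine for neutrophils, showed the same order of groups. The normoxia libraries had 7.43, 7.72 and 6.84 CPM, the H/R-DMSO libraries 15.5, 14.4 and 15.7 CPM and the H/R-AS8351 libraries 12.1, 11.6 and 13.2 CPM. No value of one group fell within another. The rise after H/R was 2.07-fold (log2 fold change 1.05, SE 0.10, adjusted p = 1.33e-12 by edgeR, n = 3 per group). The decrease with AS8351 was 19.4% (log2 fold change -0.31, SE 0.09, adjusted p = 0.00989 by edgeR), and its call rested on 1 library. Without replicate 2 of H/R-AS8351, the lowest Cxcl1 value of its group, it was -0.26 with an adjusted p of 0.0716 (edgeR), where the adjusted p with another library left out was at most 0.0478 among the libraries of these 2 groups. Against normoxia, Cxcl1 in H/R-AS8351 was 1.67-fold higher (interval 1.46 to 1.91, adjusted p = 2.46e-08 by edgeR). Cxcl1 belongs to a family of similar chemokine genes, and how multi-mapped reads were handled is not given in the sources used here, so some counts may be shared with a relative.

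The adhesion genes Vcam1 and Icam1, whose proteins bind different leukocyte integrins, went in opposite directions. Vcam1 measured 27.1, 25.3 and 26.2 CPM in normoxia, 56.9, 52.4 and 51.6 CPM in H/R-DMSO and 45.3, 40.8 and 41.7 CPM in H/R-AS8351. All H/R-DMSO libraries lay above all H/R-AS8351 libraries, and these above all normoxia libraries. Vcam1 rose 2.05-fold after H/R (log2 fold change 1.04, SE 0.06, adjusted p = 6.33e-19 by edgeR, n = 3 per group), and with AS8351 it was lower than with solvent by 20.6% (log2 fold change -0.33, SE 0.06, adjusted p = 1.42e-05 by edgeR). It remained 1.63-fold above normoxia in H/R-AS8351 (interval 1.50 to 1.77, adjusted p = 3.64e-13 by edgeR).

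Icam1 stood at 70.0, 71.1 and 65.8 CPM in normoxia, at 55.9, 55.1 and 58.0 CPM in H/R-DMSO and at 56.4, 63.5 and 60.9 CPM in H/R-AS8351. Every normoxia library lay above every other library, while the H/R groups overlapped. After H/R with solvent Icam1 fell by 18.3% (log2 fold change -0.29, SE 0.05, adjusted p = 5.86e-06 by edgeR, n = 3 per group). Scaled to the total count alone, which moves the median of all genes from 0.03 to 0.19 on the log2 scale, this decrease was -0.13 (adjusted p = 0.0261 by edgeR). The difference between AS8351 and solvent did not pass the test at a log2 fold change of 0.10, with an interval from -0.01 to 0.20 (adjusted p = 0.183 by edgeR). Icam1 in H/R-AS8351 was 12.6% lower than in normoxia (log2 fold change -0.19, SE 0.05, adjusted p = 0.00189 by edgeR). Scaled to the total count, that log2 fold change was -0.07 and the call was lost (adjusted p = 0.264 by edgeR).

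A ratio of the raw counts of 2 genes in the same library does not depend on how libraries are scaled. Vcam1 counts were 0.388, 0.355 and 0.397 of Icam1 counts in the normoxia libraries. They were 1.02, 0.952 and 0.889 of them after H/R with solvent and 0.803, 0.643 and 0.685 of them with AS8351. The mean was 0.380 ± 0.0222 (SD, n = 3), 0.953 ± 0.0639 and 0.710 ± 0.0831 in turn, and the groups did not overlap. The ratio of Cxcl1 to Ccl2 changed less: it was 0.167 ± 0.00968 (SD, n = 3) in normoxia, 0.201 ± 0.0126 in H/R-DMSO and 0.193 ± 0.0193 in H/R-AS8351, where the H/R groups overlapped. These pairs of genes were picked after the values were seen, and the ratios are a description with no test.

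**Figure D2:**
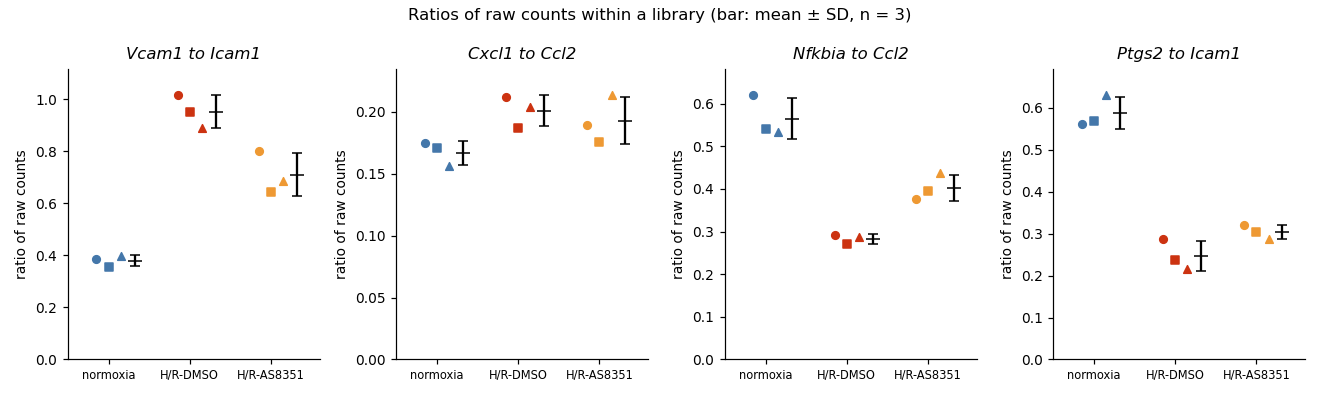
Ratio of the raw counts of 2 genes in each library (vertical axes from 0), by group, with the mean and SD of the 3 libraries beside the points and replicates 1, 2 and 3 as circle, square and triangle. The ratio of Vcam1 to Icam1 goes from a mean of 0.380 in normoxia up to 0.953 with solvent and 0.710 with AS8351 after H/R, and that of Nfkbia to Ccl2 from 0.565 down to 0.283 and 0.403.

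Ptgs2, the inducible cyclooxygenase that makes prostaglandins, had the lowest log2 fold change of the 8 genes after H/R, within an interval that overlaps that of Il1b. It measured 39.2, 40.5 and 41.5 CPM in normoxia, 16.0, 13.1 and 12.5 CPM in H/R-DMSO and 18.0, 19.3 and 17.4 CPM in H/R-AS8351. All 3 groups were separate, with the H/R-AS8351 libraries just above the H/R-DMSO libraries. The decrease after H/R was 2.92-fold (log2 fold change -1.55, SE 0.08, adjusted p = 5.67e-21 by edgeR, n = 3 per group). Of all genes tested, 2.02% had a lower log2 fold change in that comparison. With AS8351, Ptgs2 was 1.32-fold higher than with solvent (interval 1.18 to 1.48, adjusted p = 0.000156 by edgeR), and 2.21-fold lower than in normoxia (log2 fold change -1.15, SE 0.07, adjusted p = 9.1e-17 by edgeR). The replicates of H/R-DMSO spread more than those of the other groups for this gene, with a coefficient of variation of 13.7% against 2.85% in normoxia and 5.22% in H/R-AS8351. Set against Icam1, which also fell, Ptgs2 counts were 0.587 ± 0.0381 (SD, n = 3) of Icam1 counts in normoxia, 0.247 ± 0.0367 after H/R with solvent and 0.303 ± 0.0166 with AS8351.

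Il1b codes for interleukin 1 beta, a cytokine made as an inactive precursor. It rested on few counts: 86, 81 and 59 in the normoxia libraries, 20, 13 and 50 after H/R with solvent and 48, 45 and 46 with AS8351. In CPM these were 2.08, 1.58 and 1.67, then 0.534, 0.361 and 1.06, then 1.27, 0.940 and 1.04. Normoxia lay above both H/R groups, and replicate 3 of H/R-DMSO lay inside the range of H/R-AS8351, apart from the other H/R-DMSO libraries. The coefficient of variation in H/R-DMSO was 55.8%, where counting error alone would give about 19.0%.

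After H/R with solvent, Il1b fell 2.64-fold (log2 fold change -1.40, 95% interval -2.06 to -0.74, adjusted p = 0.000337 by edgeR, n = 3 per group). The difference between AS8351 and solvent was a log2 fold change of 0.68 (interval 0.00 to 1.36) and did not pass the test at an adjusted p of 0.149 (edgeR). Without replicate 3 of H/R-DMSO it was 1.26 and passed at an adjusted p of 0.019 (edgeR), and without replicate 2 of that group it was 0.41 at an adjusted p of 0.474 (edgeR). Against normoxia, Il1b in H/R-AS8351 had a log2 fold change of -0.72 (interval -1.34 to -0.10). Its adjusted p was 0.0584 with all libraries (edgeR) and between 0.0298 and 0.107 under other scalings, filters, tests and designs. It passed at 0.0298 with the 2 groups fitted alone, at 0.0321 with a mean of at least 1 CPM required, at 0.0373 without a filter on low counts and at 0.0497 with the replicate number as a block (edgeR). It also passed without replicate 2 or 3 of H/R-DMSO, at 0.0464 and 0.0471 (edgeR). These libraries belong to neither group compared. They enter through the filter, the scaling, the shared estimate of the spread and the adjustment.

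Il6, the cytokine that drives the acute-phase response, gave 30, 41 and 18 counts in the normoxia libraries, 24, 37 and 32 after H/R with solvent and 28, 40 and 24 with AS8351. The mean level was 0.677 ± 0.150 CPM (SD, n = 3), 0.783 ± 0.214 CPM and 0.705 ± 0.151 CPM, and the groups overlapped in all comparisons. The change after H/R was 1.14-fold with an interval from 0.663 to 1.96 (adjusted p = 0.717 by edgeR). With AS8351 against solvent it was 0.906-fold with an interval from 0.529 to 1.55 (adjusted p = 0.848 by edgeR). Changes within these intervals are not excluded by these few counts in 3 libraries per group.

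Nfkbia codes for IkB alpha, an inhibitor that holds NF-kB in the cytoplasm and is itself a target gene of NF-kB. Its levels were 26.3, 24.4 and 23.4 CPM in normoxia, 21.4, 20.8 and 22.1 CPM in H/R-DMSO and 24.1, 26.1 and 26.9 CPM in H/R-AS8351. The H/R-DMSO libraries were the 3 lowest, and the other groups overlapped. Nfkbia fell by 13.3% after H/R (log2 fold change -0.21, SE 0.07, adjusted p = 0.0128 by edgeR, n = 3 per group). This call was lost without replicate 1 of normoxia, at a log2 fold change of -0.16 and an adjusted p of 0.0942 (edgeR), and when libraries were scaled to the total count, at -0.04 and 0.613 (edgeR).

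The difference between AS8351 and solvent passed under all alternatives for Nfkbia. It was 1.20-fold higher with AS8351 (interval 1.09 to 1.32, adjusted p = 0.00442 by edgeR), and the adjusted p was at most 0.0408 with any library left out. H/R-AS8351 did not pass the test against normoxia, with a log2 fold change of 0.06 (interval -0.08 to 0.20, adjusted p = 0.556 by edgeR). Scaled to the total count it was 0.18 and passed at an adjusted p of 0.0281 (edgeR). Counts of Nfkbia relative to Ccl2, free of any scaling, were 0.565 ± 0.0482 (SD, n = 3) in normoxia, 0.283 ± 0.0113 in H/R-DMSO and 0.403 ± 0.0304 in H/R-AS8351, and the 3 groups did not overlap. Most of the fall in this ratio after H/R came from Ccl2, which rose 1.73-fold while Nfkbia fell by 13.3%.

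**Figure D3:**
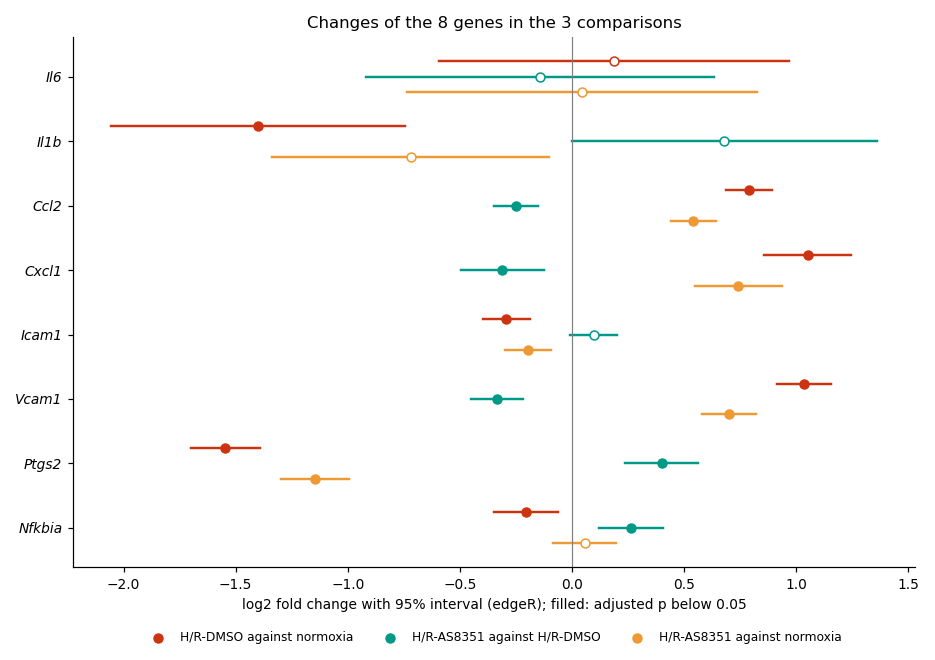
Log2 fold change of each gene (horizontal axis) with its 95% interval from edgeR in the 3 comparisons, drawn in different colours; filled points passed the threshold of 0.05 for the adjusted p. Ptgs2 after H/R lies furthest from 0 at -1.55, and the intervals of Il6 and Il1b are the widest.

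Between H/R-DMSO and normoxia, 7 of the 8 genes passed the test, where 52.7% of all genes tested did. Of these, 3 were higher (27.5% of all genes) and 4 lower (25.2%). The groups did not overlap for the same 7 genes and for 57.5% of all genes. A change of at least 2-fold was called for 4 of the 8, Cxcl1, Vcam1, Il1b and Ptgs2, and for 8.83% of all genes. The 8 genes had a median log2 fold change of -0.01 and all genes one of 0.03, since the list held rises and falls, while the median size of the change was 0.91 among the 8 and 0.25 among all genes. The 8 were chosen with earlier results of these data known, so such shares and sizes are a description in all comparisons.

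With AS8351 against solvent, 5 of the 8 genes passed, where 23.1% of all genes did: Nfkbia and Ptgs2 were higher (13.1% of all genes were) and Ccl2, Cxcl1 and Vcam1 lower (9.97%). The groups of these 5 did not overlap, as for 35.0% of all genes. A change of at least 2-fold was called for none of the 8 and for 1.37% of all genes. The median size of the log2 fold change was 0.29 among the 8 and 0.13 among all genes. Between H/R-AS8351 and normoxia, 5 of the 8 passed (39.4% of all genes), 3 higher and 2 lower (19.7% of all genes in each direction), and the groups of 6, these and Il1b, did not overlap (48.9%). A difference of at least 2-fold was called there only for Ptgs2 among the 8, and for 4.10% of all genes. The comparisons share libraries, so their counts are not independent of each other.

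**Figure D4:**
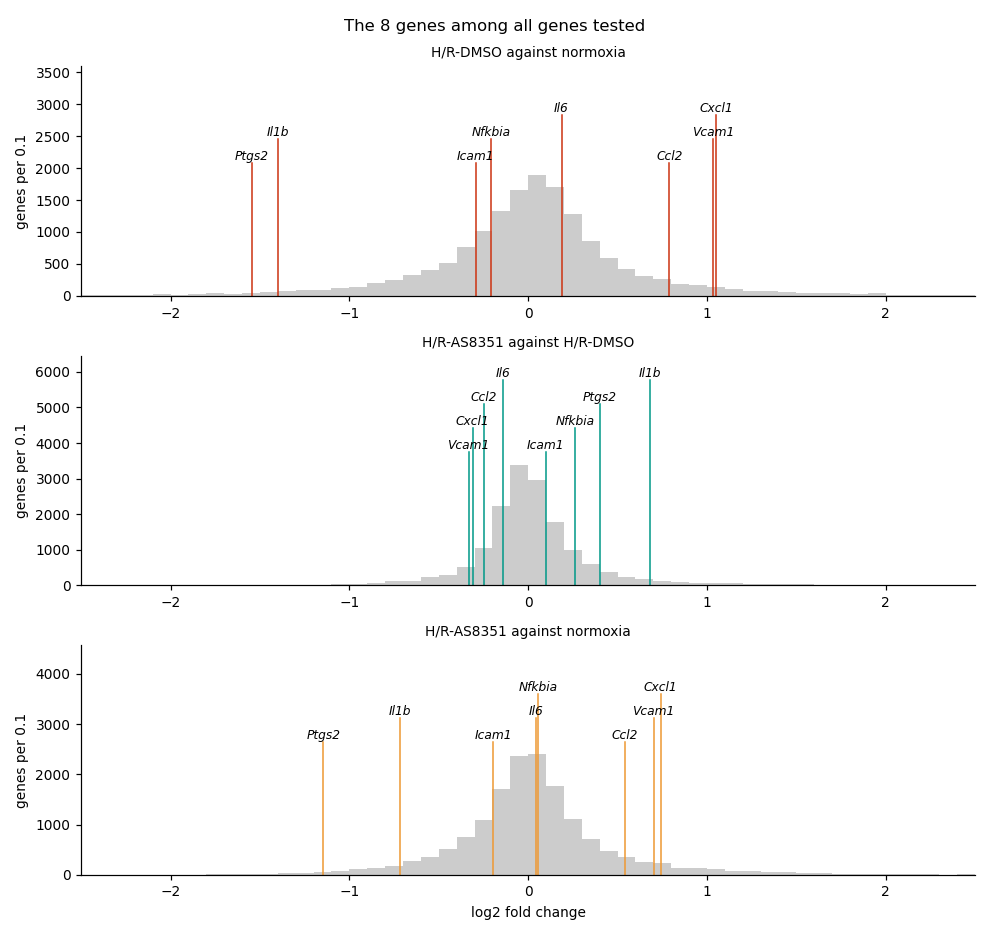
Number of genes per 0.1 of log2 fold change (grey bars) among all 15879 genes tested in each of the 3 comparisons, with a coloured line at the value of each of the 8 genes; the few genes beyond the axis are not drawn. After H/R, Ptgs2 and Il1b stand in the left tail and Ccl2, Vcam1 and Cxcl1 in the right tail, while Icam1, Nfkbia and Il6 lie within the bulk.

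The level in H/R-AS8351 was also placed between H/R-DMSO at 0% and normoxia at 100% on the CPM scale. Ccl2 stood at 37.5% ± 6.34 (SD over 3 libraries), Cxcl1 at 37.2% ± 10.5 and Vcam1 at 40.2% ± 8.55. Ptgs2 stood at 16.5% ± 3.59, and its highest library, at 20.4%, lay below the lowest library of the 3 genes that rose, at 25.8%. On the log2 scale this gap closed, with Ptgs2 at 26.0% ± 4.82 and the genes that rose between 29.4% and 32.2%. Icam1 libraries spread from 0.173% to 56.9%, so its place is not settled, and Il1b stood at 38.2% ± 14.9. Nfkbia stood at 129.7% ± 44.0, beyond normoxia on average, with libraries from 81.3% to 167.1%. Scaled to the total count it stood at 543.5%, where normoxia and H/R-DMSO overlapped, so its place is not settled. The overlap of groups leaves Il6 without a place. These places rest on the same H/R-DMSO libraries as the tests and are given as a description.

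The patterns of Ccl2, Cxcl1 and Vcam1 over the 9 libraries were the most alike within the list. The Pearson correlation of log2 CPM was 0.979 for Cxcl1 and Vcam1, 0.977 for Ccl2 and Vcam1 and 0.976 for Ccl2 and Cxcl1. Many genes of these libraries shared the pattern: Vcam1 ranked 110 of 15878 genes by likeness to Cxcl1, and 1374 genes had a correlation above 0.9 with Cxcl1. Ptgs2 ran opposite about as closely, with a correlation of -0.985 with Ccl2, -0.981 with Cxcl1 and -0.97 with Vcam1. The libraries fall into 3 groups, so such a value mostly follows the group means and is given as a description. Il6 had no gene above 0.9, and Nfkbia had 24. The gene most like Cxcl1 was ENSRNOG00000067170 (r = 0.997). Cxcl1 was taken for its rise of 1.05 on the log2 scale, which is not distinct from that of Vcam1 at 1.04, and the order turned without replicate 1 or 3 of normoxia or replicate 3 of H/R-DMSO. ENSRNOG00000067170 stood at 3.79 ± 0.340 CPM (SD, n = 3) in normoxia, 19.5 ± 2.23 CPM in H/R-DMSO and 11.8 ± 1.64 CPM in H/R-AS8351. The gene most like Ptgs2, taken for its fall, was ENSRNOG00000016182 (r = 0.996), at 15.1 ± 0.520 CPM (SD, n = 3), 5.53 ± 0.644 CPM and 7.21 ± 0.0102 CPM in the same order. Other genes of the NF-kB, interleukin and prostaglandin pathways were listed by symbol, and as no ID matched the gene table, they are not analysed here.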

How the data were processed

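RNA was measured in 9 libraries, and the deposited tables hold raw counts per Ensembl gene ID. The submitters' processing notes name build rn6, STAR 2.7.3a, featureCounts 2.0.1, Trimmomatic 0.39 and DESeq2 1.32.0. Strand setting and annotation release: not given in the sources used here. An overlapping or antisense gene can therefore share counts. Groups come from the sample titles. Totals ran from 34442733 to 54888975 counts, and replicates differed by more than counting noise (chi-square per degree of freedom 3.89 to 8.72).

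In R 4.3.3, edgeR 4.0.16 filtered genes (filterByExpr, minimum count 10, minimum total 15), scaled by TMM and fitted a single quasi-likelihood model of the 3 group means to all 9 libraries. SE is the size of the log2 fold change over the square root of F, and 95% intervals use the t distribution. The fit was run on simulated data with the same spread between replicates for every gene. That checks the code and not the p-values of the real counts. Alternatives were RLE or total-count scaling, other filters, DESeq2 1.42.0, the 2 groups alone, a replicate block and each library left out. All 8 members are named. Members, lists and tests were chosen with earlier results of these data known. Likeness is Pearson's r of log2 CPM (prior count 2), with the nearest gene named only for the members of largest rise and fall. Promoter stretches are from RefSeq, build GRCr8, another build than the files'.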

Additional observations from a re-analysis of the deposited data

How the results depend on the processing

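Over all alternatives, between 6 and 7 of the 8 genes passed after H/R, between 4 and 6 with AS8351 against solvent, and between 5 and 6 for H/R-AS8351 against normoxia. The share of all genes in the fit that passed ran from 36.1% to 61.7%, from 16% to 27.8% and from 27.2% to 48.2% in the same order. The lowest shares came from DESeq2 and were counted over 21961 genes, against 15879 in the main fit. That base includes any gene that DESeq2 left without an adjusted p. Of 165 log2 fold changes under other scalings, filters, tests and designs, 158 kept direction and call, 5 newly passed and 2 no longer did. Il6 gave no value with a mean of at least 1 CPM required. Of 216 with a library left out, 206 kept both, 3 newly passed, 2 no longer did and 5 reversed, all of them Il6: its value ranged from -0.049 to 0.32 after H/R, from -0.29 to 0.094 with AS8351 against solvent and from -0.11 to 0.21 against normoxia. The changed calls of Il1b, Cxcl1, Icam1 and Nfkbia are given with those genes; the cause was not tested. A fit with a library left out assumes that its group varies like the others.

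Replicate numbers gave no clear pairing: the correlation of deviations from group means was -0.023 to 0.042 where numbers matched and -0.045 to 0.026 where they did not. With the replicate block, 7, 5 and 6 of the 8 genes passed in the 3 comparisons, Il1b being the addition, and 53.8%, 24.8% and 40.7% of all genes. On a log2 scale, the place of H/R-AS8351 moved to 54.7% for Il1b and 26.0% for Ptgs2; for Nfkbia it moved to 543.5% under total-count scaling, where the groups that define it overlapped. Positions and ratios, with their alternatives, were chosen after seeing the data. Few counts limit Il6 and Il1b.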
